A study of Mus musculus with 1 sample.

Results

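The 17β-hydroxysteroid dehydrogenases are reductases and dehydrogenases named for their action on the hydroxyl or keto group at position 17 of steroids. Some of them, such as HSD17B1 and HSD17B3, interconvert weak and potent estrogens and androgens, and HSD17B3 is best known for turning androstenedione into testosterone. Others act mainly on fatty acids, on branched-chain amino acids or in lipid droplets, in the endoplasmic reticulum, in mitochondria or in peroxisomes. In the fetal mouse testis, the steps from cholesterol to androstenedione belong to Leydig cells (LCs), whereas Sertoli cells (SCs) are known to carry the last, 17-keto-reducing step.

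The 7 members described here, *Hsd17b1*, *Hsd17b3*, *Hsd17b4*, *Hsd17b8*, *Hsd17b10*, *Hsd17b11* and *Hsd17b12*, are 7 of the 22631 features of the matrix and were taken by gene symbol, with *Hsd17b8* listed under its other name, *H2-Ke6*. They were followed in 1 single-cell RNA-sequencing library (10x Genomics 3′ chemistry) from pooled control testes, given as 12 controls in the label and as 12 testes in the study's text. The label calls these controls WT, and the study's methods give them as *Nr5a1* L2/L2, that is with both *Nr5a1* alleles flanked by loxP sites and no Cre transgene. The label gives E14.5, and the text of the study gives E13.5 and E14.5. The mutant library was not used here. With 1 library there is no replicate, so no test was made, and every interval given below is a 95% interval that covers counting error only.

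The library held 72595083 UMIs (unique molecular identifiers, each counted as 1 captured transcript) in 5421 barcodes. After removal of 372 barcodes with fewer than 200 genes, 204 likely doublets and 1024 outliers, 3821 cells remained, with a median of 12078 UMIs and a range of 2266 to 53807. Of their 16 clusters, which were formed without the Hsd17b genes, 13 were named from marker genes. The named classes of at least 30 cells were Sertoli-like (852 cells), Leydig-like (316), interstitial-like (1154), peritubular myoid-like (525), coelomic epithelium-like (147), germ-like (251), perivascular-like (108), immune-like (35) and erythroid-like (32). Smaller still were the endothelial-like class (27) and the rete testis-like class (16), and 358 cells in 3 clusters stayed unnamed. In at least 25% of the cells of the class were 9 of 10 Sertoli markers and 3 of 5 peritubular myoid markers. The interstitial-like class rests mostly on cluster 1 (836 cells), which had no interstitial marker among its 10 leading genes and a mean log2 marker ratio of 1.06, just over the minimum of 1. The Leydig-like class joined 2 clusters: cluster 8 (129 cells), led by *Clps*, *Cyp11a1*, *Cyp17a1* and *Star*, and cluster 6 (187 cells), led by *Nppc*, *Vsnl1* and *Nts*, which had no Leydig marker among its 10 leading genes and was named from the mean level of those markers. Germ-like cells were the deepest, with a median of 36155 UMIs.

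RefSeq promoter windows (GRCm38.p6, from 250 bases before to 50 bases after the gene's start) were at hand for 5 of the 7 members, *Hsd17b3*, *Hsd17b8*, *Hsd17b10*, *Hsd17b11* and *Hsd17b12*. Those of *Hsd17b3*, nearly all of whose UMIs lay in Sertoli-like cells, and of *Hsd17b10* and *Hsd17b12*, which were read in all classes, are shown to set a gene of 1 class beside genes of all classes. CpG dinucleotides are in capitals, and each window is written 5′ to 3′ on the gene's strand.
Hsd17b3, chr13:64089152-64089451, minus strand: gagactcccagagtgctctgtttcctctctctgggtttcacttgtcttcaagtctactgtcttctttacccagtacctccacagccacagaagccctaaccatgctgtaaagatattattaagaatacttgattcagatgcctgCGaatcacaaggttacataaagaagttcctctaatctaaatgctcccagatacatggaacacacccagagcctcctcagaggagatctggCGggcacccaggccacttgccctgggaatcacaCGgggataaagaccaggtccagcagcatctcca
Hsd17b10, chrX:152001646-152001945, plus strand: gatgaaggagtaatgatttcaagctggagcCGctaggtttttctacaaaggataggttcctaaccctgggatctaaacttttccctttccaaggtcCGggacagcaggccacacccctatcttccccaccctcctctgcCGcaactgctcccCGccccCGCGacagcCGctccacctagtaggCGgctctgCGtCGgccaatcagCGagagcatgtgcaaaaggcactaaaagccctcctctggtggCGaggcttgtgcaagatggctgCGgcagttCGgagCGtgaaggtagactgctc
Hsd17b12, chr2:94157860-94158159, minus strand: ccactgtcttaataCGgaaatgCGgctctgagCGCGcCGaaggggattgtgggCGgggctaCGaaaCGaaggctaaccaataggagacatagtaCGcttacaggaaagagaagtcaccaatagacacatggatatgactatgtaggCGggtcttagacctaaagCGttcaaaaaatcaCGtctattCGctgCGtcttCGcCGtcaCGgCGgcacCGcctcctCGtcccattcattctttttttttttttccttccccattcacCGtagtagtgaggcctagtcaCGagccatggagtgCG
The *Hsd17b3* window held 3 CpGs, fewer than the median of 7 over all 32851 windows of this length. The other 4 windows held more than that median, with 15 in *Hsd17b10*, 16 in *Hsd17b8*, 18 in *Hsd17b11* and 23 in *Hsd17b12*. The letters CCAAT, searched on both strands, were in each of these 4 windows and not in that of *Hsd17b3*, and were in 37.4% of all windows. The letters GATAA were in the *Hsd17b3* window alone of the 5, and in 25.4% of all windows. Neither AAGGTCA, letters bound by NR5A1, nor AACAAT, letters bound by SOX factors, was in any of the 5 windows on either strand. They were in 4.7% and 10.7% of all windows. Only these exact letters were searched, so variants of either site were not looked for. These matches describe letters only, and binding was not measured.

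*Hsd17b1* and *Hsd17b3*, the members best known for reducing the 17-keto group of sex steroids, were read almost wholly in Sertoli-like cells. *Hsd17b1* (chromosome 11, 101078411 to 101080527, plus strand, 6 exons) stood at 168 CPM (UMIs of the gene per 1000000 UMIs of the class; 95% interval 161 to 175) in Sertoli-like cells, from 2175 UMIs. It was at 3.65 CPM (2.26 to 5.57) in Leydig-like cells, at 2.25 CPM in interstitial-like cells, at 0.571 CPM in peritubular myoid-like cells, at 0.732 CPM in coelomic epithelium-like cells and at 1.13 CPM in germ-like cells. Sertoli-like cells thus lay far above every other class of at least 30 cells, and the 8 other classes overlapped their neighbours in the order. The next class was immune-like, at 9.15 CPM (2.97 to 21.4), which rests on 5 UMIs. *Hsd17b3* (chromosome 13, 64058266 to 64089230, minus strand) stood at 273 CPM (264 to 283) in Sertoli-like cells, from 3535 UMIs, and at 3.47 CPM (2.12 to 5.36) in Leydig-like cells. Interstitial-like cells came next to Sertoli-like cells, at 4.60 CPM (3.40 to 6.08), and erythroid-like cells held no UMI, which allows up to 5.49 CPM at 3 counts.

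**Figure D1:**
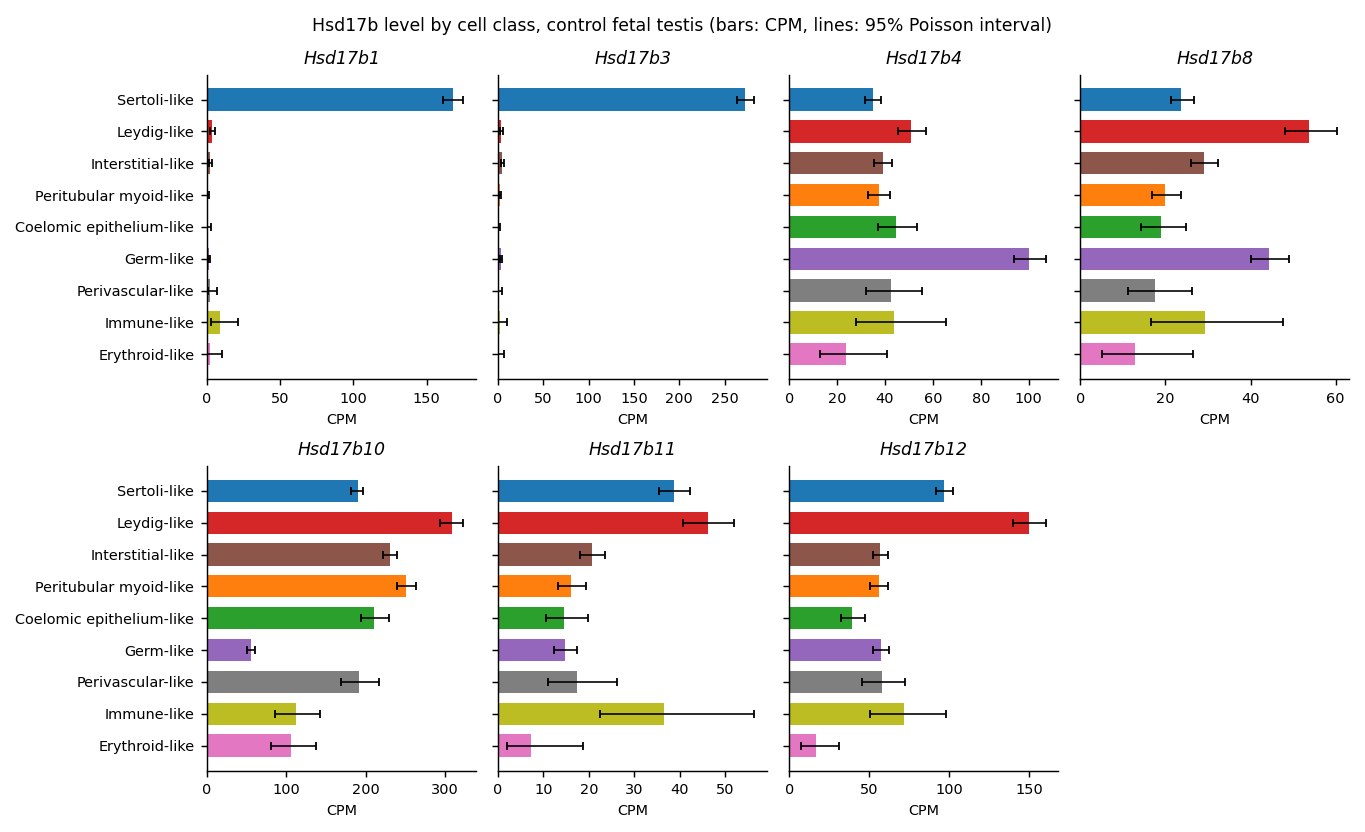
Level of each member in the 9 named classes of at least 30 cells. Each panel is 1 gene with its own horizontal axis in CPM (UMIs of the gene per 1000000 UMIs), bars give the level of the summed cells of a class and black lines the 95% Poisson interval. *Hsd17b1* and *Hsd17b3* have a single long bar, in Sertoli-like cells at 168 and 273 CPM; *Hsd17b4* is longest in germ-like cells at 100 CPM, and the other 4 members are longest in Leydig-like cells.

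Sertoli-like cells held 95.5% of all *Hsd17b1* UMIs (94.5 to 96.3) and 95.2% of all *Hsd17b3* UMIs (94.5 to 95.9), although they held 23.6% of the UMIs of all genes. *Hsd17b3* had at least 1 UMI in 796 of 852 Sertoli-like cells (93.4%) and *Hsd17b1* in 689 (80.9%), at a median depth of 14371.5 UMIs. In peritubular myoid-like cells, which are not known to make either enzyme, these shares were 2.67% and 0.762% at a median depth of 11605 UMIs, and in Leydig-like cells they were 3.80% and 5.38% at 15980 UMIs. When each cell was thinned to 5000 UMIs, which left out 11 Sertoli-like cells, the share with *Hsd17b3* was 72.1% in Sertoli-like cells, 0.958% in Leydig-like cells and 1.36% in peritubular myoid-like cells. For *Hsd17b1* these shares were 50.7%, 1.60% (0.521 to 3.69, 5 of 313 cells) and 0.195% (0.00494 to 1.08, 1 of 513 cells). Between Leydig-like and peritubular myoid-like cells, the level of *Hsd17b3* overlapped within counting error (3.47 and 2.28 CPM), and its share was higher in Leydig-like cells before thinning and lower after it. The level of *Hsd17b1* did not overlap (2.26 to 5.57 CPM in Leydig-like and 0.155 to 1.46 CPM in peritubular myoid-like cells), nor did its share before thinning (3.16 to 8.47% and 0.208 to 1.94%), whereas its share after thinning did. Peritubular myoid-like cells had the lowest *Hsd17b1* level of the 9 classes of at least 30 cells. The Leydig-like level overlapped that of interstitial-like cells (1.44 to 3.35 CPM) but not that of germ-like cells (0.544 to 2.09 CPM).

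At full depth, most Sertoli-like cells held both genes. UMIs of both were in 648 of 852 cells (76.1%), of *Hsd17b3* alone in 148, of *Hsd17b1* alone in 41 and of neither in 15. *Hsd17b3* was found in 94.0% of the cells with *Hsd17b1* and in 90.8% of the cells without it, after thinning to 5000 UMIs in 74.6% and 69.4%, and after thinning to 3000 UMIs in 52.0% and 56.2%. The direction of this small difference was not the same in all 3 readings. Each thinning was drawn once and the differences were given no interval, so a turn with depth cannot be told from counting error. The share of cells with both was 37.8% at 5000 and 19.7% at 3000 UMIs. A Sertoli-like cell held a median of 3 *Hsd17b3* UMIs (quartiles 2 and 6, highest 21) and of 2 *Hsd17b1* UMIs (quartiles 1 and 4, highest 19).

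**Figure D2:**
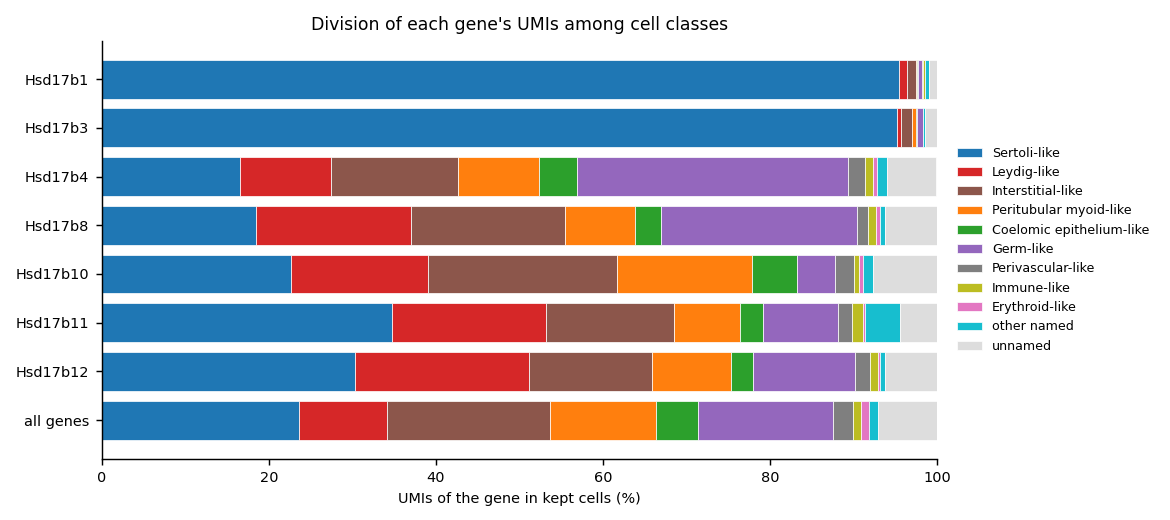
Division of each member's UMIs among the cell classes, in percent of the gene's UMIs in the 3821 kept cells, with the UMIs of all genes in the lowest bar. The other named cells are the endothelial-like and rete testis-like classes. Sertoli-like cells fill 95.5% of the *Hsd17b1* bar and 95.2% of the *Hsd17b3* bar against 23.6% of the bar of all genes, and germ-like cells fill 32.5% of the *Hsd17b4* bar against 16.1%.

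Few UMIs of these genes lay outside Sertoli-like cells, and they were set beside 10 Sertoli markers (*Amh*, *Sox9*, *Dhh*, *Aard*, *Cldn11*, *Ptgds*, *Fgf9*, *Cst9*, *Mro* and *Sox10*) read in the same cells. In Leydig-like cells the markers stood at 0.307% to 10.8% of their Sertoli-like level, with a median of 1.47% and none at 0, and *Hsd17b1* stood at 2.17% and *Hsd17b3* at 1.27%. Both members lay inside the range of the markers there, *Hsd17b1* above their median and *Hsd17b3* below it. The markers above *Hsd17b1* were *Mro* (10.8%), *Fgf9* (6.34%, from 5 UMIs) and *Sox9* (3.02%). *Fgf9* is not particular to Sertoli-like cells, since it stood at 476% of its Sertoli-like level in coelomic epithelium-like cells. Lying inside so wide a range therefore says little. Of the other markers, *Amh* (0.307%), *Cst9* (0.491%) and *Aard* (0.736%) lay below *Hsd17b1* (1.34 to 3.31%) beyond counting error. *Dhh* (0.898%, 0.514 to 1.46) and *Ptgds* (1.33%, 1.13 to 1.55) were lower but overlapped it. So were *Sox10* (1.60%, 0.194 to 5.79, from 2 UMIs) and *Cldn11* (1.98%, 0.728 to 4.32, from 6 UMIs). In Leydig-like cluster 8, *Hsd17b1* stood at 2.95% and *Hsd17b3* at 0.682%, against a marker median of 0.962% (range 0.219% to 15.6%). In germ-like cells the marker median was 0.7%, with *Hsd17b1* at 0.674% and *Hsd17b3* at 1.16%. In interstitial-like cluster 3 (318 cells, led by *Ntng1*), *Hsd17b3* stood at 12.3 CPM, from 33 UMIs in 16 cells, or 4.51% of the Sertoli-like level against a marker median of 2.75%. The markers there ranged from 1.07% to 8.19%, and *Hsd17b1* stood below their median at 2.22%. In immune-like cells 6 of the 10 markers were at 0, and *Hsd17b1* stood at 5.44%, above the highest marker (*Aard*, 0.753%), from 5 UMIs. Whether the UMIs outside Sertoli-like cells came from free RNA was not tested.

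Among the cells left out of these classes, unnamed cluster 11 (61 cells, median 3116 UMIs, led by *Cited1*, *Etd* and *Gstm6*) held *Hsd17b3* at 206 CPM (151 to 275) and *Hsd17b1* at 80.6 CPM (47.8 to 127). There the 10 Sertoli markers had a median of 49.8% of their Sertoli-like level. The 16 rete testis-like cells held *Hsd17b1* at 54.8 CPM (27.4 to 98.1), from 11 UMIs in 7 cells, and *Hsd17b3* at 39.9 CPM (17.2 to 78.5), from 8 UMIs in 2 cells. Of these 8 UMIs, 7 lay in 1 cell, so this *Hsd17b3* level rests largely on that cell. The marker median in the 16 rete testis-like cells was 12.6%.

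**Figure D3:**
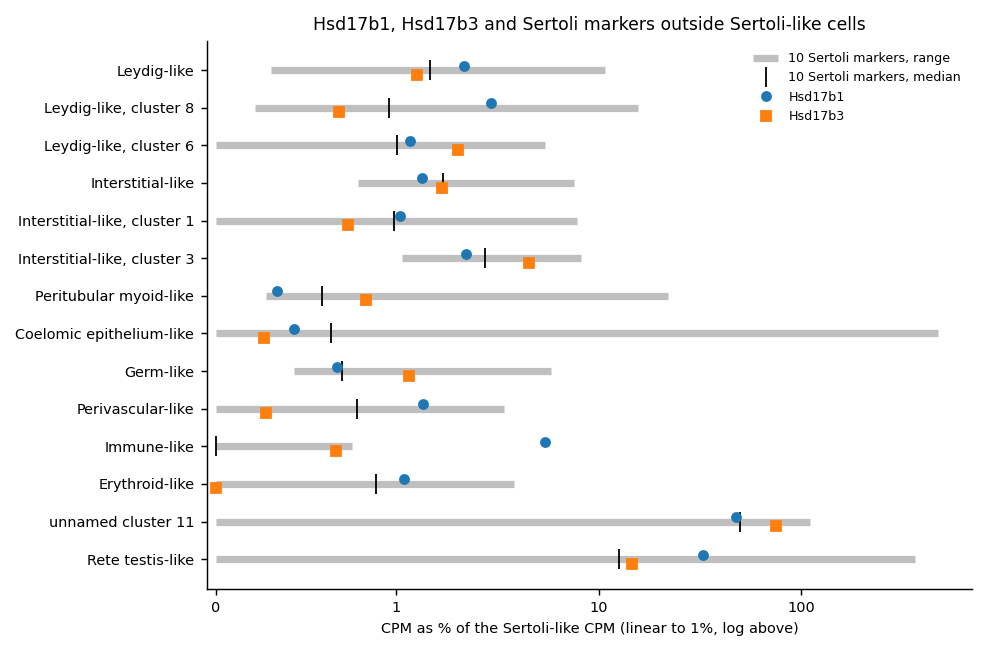
Levels of *Hsd17b1* (circles) and *Hsd17b3* (squares) outside Sertoli-like cells, in percent of each gene's Sertoli-like level, on an axis that is linear to 1% and logarithmic above. Grey bars span 10 Sertoli markers and black ticks give their median. In Leydig-like cells both members, at 2.17% and 1.27%, lie within the span of the markers, whose upper end is *Mro* (10.8%). In immune-like cells *Hsd17b1*, at 5.44%, lies outside the span. In coelomic epithelium-like and rete testis-like cells the upper end is *Fgf9* (476% and 364%).

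*Hsd17b12*, the ketoacyl-CoA reductase of the fatty acid elongation cycle in the endoplasmic reticulum, which is also known to turn androstenedione into testosterone, was read in all classes and was highest in Leydig-like cells. It stood at 150 CPM (140 to 160) in Leydig-like cells and at 96.8 CPM (91.5 to 102) in Sertoli-like cells, which do not overlap. Of the 2 Leydig-like clusters, cluster 8 stood at 188 CPM and cluster 6 at 102 CPM, the latter close to Sertoli-like cells. Interstitial-like cells (56.9 CPM), peritubular myoid-like cells (55.9 CPM), germ-like cells (57.3 CPM) and perivascular-like cells (57.8 CPM) did not differ beyond counting error. Coelomic epithelium-like cells lay below the first 3 of these at 39.1 CPM (32.1 to 47.3), and erythroid-like cells were lowest at 16.5 CPM. The gene spans 125276 bases of chromosome 2 (94032689 to 94157964, minus strand).

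*Hsd17b8*, the gene of a mitochondrial ketoacyl-ACP reductase subunit that pairs with CBR4, was highest in Leydig-like and germ-like cells. It stood at 53.8 CPM (48.0 to 60.2) in Leydig-like cells and at 44.3 CPM (40.1 to 49.0) in germ-like cells, which overlap. Interstitial-like cells were at 29.0 CPM, Sertoli-like cells at 23.7 CPM (21.2 to 26.6), coelomic epithelium-like cells at 19.0 CPM and peritubular myoid-like cells between 16.8 and 23.6 CPM. The gene lies on chromosome 17 (34026033 to 34028060, minus strand), where the annotation places a second gene, *Gm20427*, over it on the same strand, so reads of the 2 could not be told apart by position alone.

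*Hsd17b10*, the gene of a mitochondrial dehydrogenase of isoleucine breakdown that is also a subunit of mitochondrial RNase P, was read in all classes and was lowest in germ-like cells. It stood at 309 CPM (294 to 323) in Leydig-like cells, 251 CPM (239 to 263) in peritubular myoid-like cells, 231 CPM in interstitial-like cells, 211 CPM in coelomic epithelium-like cells and 190 CPM (182 to 197) in Sertoli-like cells. Germ-like cells were at 55.5 CPM (50.6 to 60.6), below every other class of at least 30 cells. After thinning to 5000 UMIs, 22.7% of germ-like cells (17.6 to 28.4) held a UMI of *Hsd17b10*, against 62.7% of Sertoli-like cells and 79.2% of Leydig-like cells. Without thinning the germ-like share was 79.3%, at the greater depth of these cells. The 16 rete testis-like cells stood at 314 CPM (241 to 402), which overlaps Leydig-like cells. *Hsd17b10* is the X-linked member (152001845 to 152004442, plus strand).

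*Hsd17b4*, the gene of the peroxisomal D-bifunctional protein, was highest in germ-like cells. It stood at 100 CPM (93.7 to 107) there and at 51.0 CPM (45.4 to 57.2) in Leydig-like cells, a step of 1.96-fold with no overlap. Coelomic epithelium-like (44.6 CPM), immune-like (43.9 CPM), perivascular-like (42.6 CPM), interstitial-like (39.1 CPM), peritubular myoid-like (37.4 CPM) and Sertoli-like cells (35.0 CPM, 31.8 to 38.3) followed, and each overlapped its neighbours. At 5000 UMIs per cell, 38.9% of germ-like cells (32.8 to 45.3) held a *Hsd17b4* UMI, against 17.8% of Sertoli-like and 22.4% of Leydig-like cells. The gene is on chromosome 18 and overlaps *Cd63-ps*, a transcribed pseudogene on the same strand.

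*Hsd17b11*, the gene of a lipid droplet enzyme, was highest in Leydig-like cells (46.2 CPM, 40.8 to 52.1) and Sertoli-like cells (38.7 CPM, 35.4 to 42.2), which overlap. Interstitial-like cells stood at 20.7 CPM, peritubular myoid-like cells at 16.1 CPM, germ-like cells at 14.7 CPM and coelomic epithelium-like cells at 14.6 CPM. These 4 classes lay below both of the former beyond counting error. In the 16 rete testis-like cells *Hsd17b11* stood at 214 CPM (155 to 289), from 43 UMIs in 12 cells, above its level in any class of at least 30 cells. It lies on chromosome 5 (103989762 to 104021919, minus strand), beside *Hsd17b13*.

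Sertoli-like and Leydig-like cells, the 2 classes between which testosterone synthesis is known to be divided, were then compared directly, over the 12911 features with at least 10 UMIs in both together. *Hsd17b1* was 46.1-fold higher in Sertoli-like cells (log2 ratio 5.53, 4.91 to 6.22) and *Hsd17b3* was higher by a log2 ratio of 6.30 (5.67 to 7.01). *Hsd17b8* was lower in Sertoli-like cells by 2-fold or more (log2 ratio -1.18, -1.41 to -0.95). The other 4 members lay within 2-fold, at log2 ratios of -0.26 (*Hsd17b11*), -0.55 (*Hsd17b4*), -0.63 (*Hsd17b12*) and -0.70 (*Hsd17b10*). By this rule 2 of 7 members were higher in Sertoli-like cells, where 21.9% of all features were, and 1 of 7 was lower, where 13.8% were. The median log2 ratio was -0.55 over the members and 0.21 over all features tested. The *Hsd17b8* ratio fell short of 2-fold as a mean of single-cell CPM (-0.98) and against cluster 6 alone (-0.73). Against cluster 6 alone the *Hsd17b11* ratio turned to 0.51 and the *Hsd17b12* ratio shrank to -0.07.

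The genes of the androgen pathway that precede the 17-keto step lay on the Leydig side. Of 17 genes on the list, 16 had enough UMIs, 11 were lower in Sertoli-like cells by 2-fold or more and 1 was higher (*Akr1c14*, from 42 against 4 UMIs), with a median log2 ratio of -2.76. *Cyp17a1*, which makes androstenedione, stood at 10285 CPM in Leydig-like and 12.9 CPM in Sertoli-like cells, and *Cyp11a1*, which starts the pathway from cholesterol, at 7202 and 12.6 CPM. *Hsd3b1* stood at 2207 and 18.9 CPM and *Star*, the cholesterol carrier, at 1340 and 10.7 CPM. *Hsd17b3* and *Hsd17b1* thus went in the direction opposite to these 4 genes. The 4 were among the markers that named the Leydig-like class, so their high level there follows from the naming. They are also among the 11 genes counted as lower. Of the electron donors, *Fdx1* had a log2 ratio of -5.83, *Por* one of -2.95, *Fdxr* one of -1.66 and *Cyb5a* one of -0.23.

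**Figure D4:**
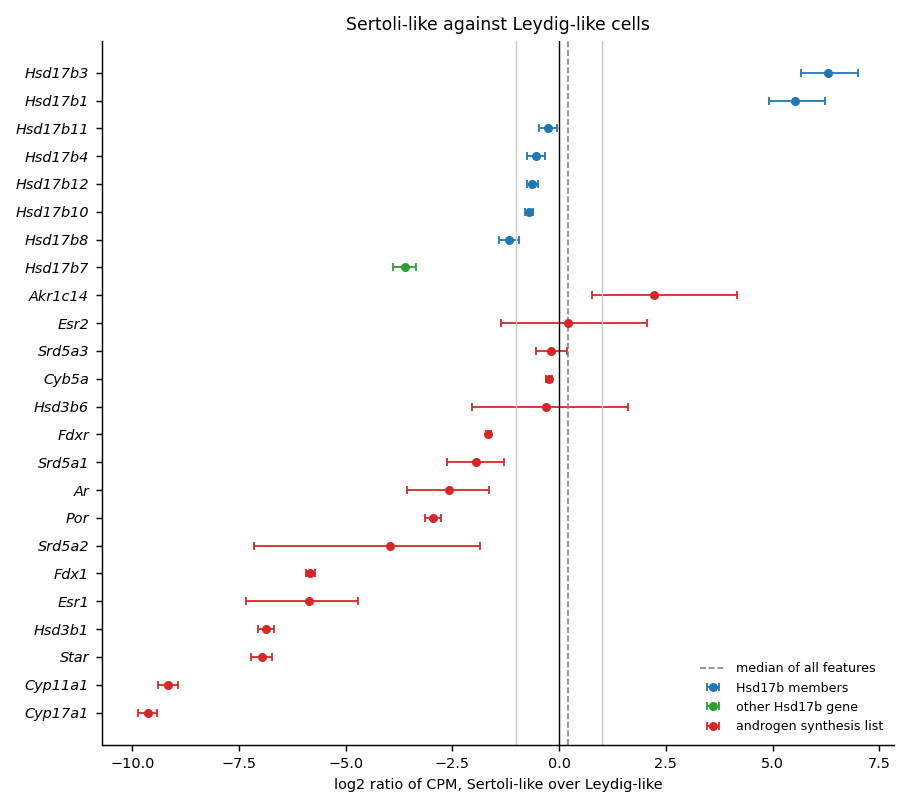
Log2 ratio of CPM between Sertoli-like and Leydig-like cells for the members (blue), *Hsd17b7* (green) and the androgen synthesis genes with UMIs in both classes (red), with 95% counting intervals. Positive values are higher in Sertoli-like cells, the dashed line is the median of all features (0.21) and pale lines mark 2-fold. *Hsd17b3* (6.30) and *Hsd17b1* (5.53) lie far to the right. *Cyp17a1* (-9.64) and *Cyp11a1* (-9.16), both among the markers that named Leydig-like cells, lie far to the left.

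Lists of partner genes of the other members were read in the same comparison. Of the 12 fatty acid elongation genes, which act with *Hsd17b12*, 4 were higher in Sertoli-like cells by 2-fold or more, 3 were lower and 5 lay within 2-fold. *Hacd2*, a dehydratase of the cycle, was among the higher ones (138 against 26.2 CPM), and *Elovl6*, an elongase, among the lower ones (16.7 against 134 CPM). Each of the 5 mitochondrial ketoacyl genes lay within 2-fold, *Cbr4*, the partner of *Hsd17b8*, at a log2 ratio of 0.30. Of the 6 isoleucine breakdown genes, 3 were lower (*Acadsb*, *Echs1* and *Acat1*) and 1 higher (*Bcat2*), with a median of -0.86. The RNase P partners of *Hsd17b10*, *Trmt10c* and *Prorp*, lay at -0.12 and 0.27. Of 10 peroxisomal genes with enough UMIs, 3 were lower and none higher, and of 8 lipid droplet genes 3 were lower, among them *Plin1* at 0.464 against 132 CPM.

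Germ-like cells were set against all named somatic cells over 15164 features, a comparison added once levels had been seen. *Hsd17b4* was higher in germ-like cells by 2-fold or more (log2 ratio 1.33, 1.21 to 1.45), as were 18.4% of all features. *Hsd17b1*, *Hsd17b3*, *Hsd17b10* (log2 ratio -2.03, -2.16 to -1.90) and *Hsd17b11* (-1.01, -1.28 to -0.75) were lower, so 4 of 7 members were, beside 38.5% of all features. The pooled somatic level of *Hsd17b1* and *Hsd17b3* is mainly that of Sertoli-like cells. Germ-like cells (1.13 and 3.18 CPM) overlapped peritubular myoid-like cells (0.571 and 2.28 CPM) for both. For *Hsd17b11*, germ-like cells (14.7 CPM) overlapped peritubular myoid-like (16.1 CPM) and coelomic epithelium-like cells (14.6 CPM). *Hsd17b8* (0.67) and *Hsd17b12* (-0.48) lay within 2-fold. Of the 11 peroxisomal genes tested beside *Hsd17b4*, 1 was higher in germ-like cells (*Acaa1b*) and 3 were lower, with a median of -0.68 against -0.44 over all features. The other 2 subunits of mitochondrial RNase P did not go with *Hsd17b10*, since *Prorp* was higher in germ-like cells (log2 ratio 1.77) and *Trmt10c* lay at 0.39.

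The 2 Leydig-like clusters were compared in the same way over 11176 features, again once levels had been seen. *Hsd17b11* stood at 61.2 CPM (53.0 to 70.4) in cluster 8, whose cells are led by steroidogenic genes, and at 27.2 CPM (21.1 to 34.4) in cluster 6. *Hsd17b12* stood at 188 and 102 CPM (log2 ratio 0.89, 0.67 to 1.10) and *Hsd17b8* at 65.2 and 39.4 CPM (0.73, 0.38 to 1.09), and neither reached 2-fold. *Hsd17b4* (50.3 and 52.0 CPM) overlapped between the clusters, and *Hsd17b10* (324 and 289 CPM) differed by a log2 ratio of 0.16 (0.02 to 0.30). By the 2-fold rule, 2 of 7 members were higher in cluster 8 (*Hsd17b11*, and *Hsd17b1* with 16 against 5 UMIs), beside 8.5% of all features, and 1 of 7 was lower (*Hsd17b3*, 6 against 14 UMIs), beside 17.7%. The interval of the *Hsd17b1* ratio crossed 0 (-0.18 to 3.14). That of the *Hsd17b3* ratio was -3.23 to -0.09, but 1 cell of cluster 6 held 8 of its 14 UMIs, so this call rests largely on that cell. Of 13 androgen synthesis genes tested, 6 were higher in cluster 8 by 2-fold or more, 2 were lower and 5 lay within 2-fold. *Star* (2081 and 401 CPM) and *Cyp17a1* (15245 and 4001 CPM), both among the leading genes of cluster 8, were higher there. So were *Cyp11a1* and *Hsd3b1*, which are leading genes of cluster 8 too. Most of the 6 genes counted as higher are thus leading genes of cluster 8, and that count is no independent result. *Fdxr* had a log2 ratio of 0.93 and *Por* one of 0.31.

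**Figure D5:**
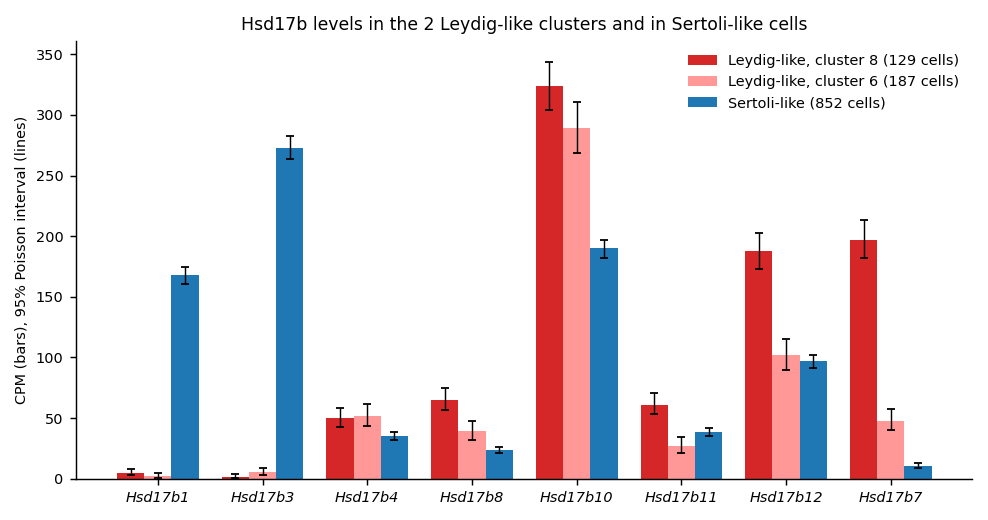
Levels of the members and of *Hsd17b7* in Leydig-like cluster 8, Leydig-like cluster 6 and Sertoli-like cells. Bars give CPM, to be compared within a gene, and lines the 95% Poisson interval. *Hsd17b8*, *Hsd17b11*, *Hsd17b12* and *Hsd17b7* are higher in cluster 8 than in cluster 6, whereas *Hsd17b1* and *Hsd17b3* are close to 0 in both and high in Sertoli-like cells.

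Across the 9 classes, a gene was counted as set apart in 1 class where its highest level was 2-fold or more over the next. This held for 28.8% of 15118 features and for 2 of 7 members, *Hsd17b1* (18.4-fold over immune-like cells) and *Hsd17b3* (59.3-fold over interstitial-like cells). Sertoli-like cells were that class for 4.74% of all features, Leydig-like cells for 2.62% and germ-like cells for 9.29%. No member passed in Leydig-like or germ-like cells, where the largest steps were 1.55-fold (*Hsd17b12*) and 1.96-fold (*Hsd17b4*). The share of members set apart, 2 of 7, is thus close to that of all features. By highest class alone, 2 members were highest in Sertoli-like cells, 1 in germ-like cells and 4 in Leydig-like cells. The share of all features highest in each class was not counted, so these counts only describe the members. Of the 4 members highest in Leydig-like cells, *Hsd17b8* overlapped germ-like cells and *Hsd17b11* overlapped Sertoli-like and immune-like cells. *Hsd17b11* was highest in another class under 7 of 17 alternative settings.

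The genes most like each member over the 9 classes were found among 9536 genes by Pearson's r of log2(CPM + 1), given as a description of 9 classes of 1 library. For *Hsd17b1* they were *Gstm1* (0.97), *Cstdc1* and *Trim47*, and for *Hsd17b3* *Etd* (0.986), *Tnfrsf12a* and *Gm14226*. For *Hsd17b4* they were *Abl2* (0.983), *Fra10ac1* and *Lypla1*, and for *Hsd17b8* they included *Armc8* (0.953) and *Ndufa6*. *Hsd17b10* was most like *Cd81* (0.99), *Txndc5* and *Papss1*, *Hsd17b11* most like the lysosomal genes *Asah1* (0.981) and *Tpp1*, then *Srp14*, and *Hsd17b12* most like *Atp6v1d* (0.963), *Ccdc28b* and *Emc4*. No member was among the 3 genes most like another member.

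Of the 5 other genes with an Hsd17b symbol, *Hsd17b7*, an enzyme of cholesterol synthesis, had the most UMIs, 1263 in all kept cells. It stood at 131 CPM (122 to 141) in Leydig-like cells, with 197 CPM in cluster 8 and 48.0 CPM in cluster 6, and at 10.7 CPM in Sertoli-like cells. *Hsd17b14* had 27 UMIs in all kept cells, 17 of them in germ-like cells. *Hsd17b2*, *Hsd17b6* and *Hsd17b13* had at most 6 UMIs in any class, so their division was not detectable at this depth.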

How the data were processed

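The authors deposited raw UMI counts per gene and barcode for the control library, made with Cell Ranger on mm10 (GRCm38). The submitters' processing notes name versions 3.0.2 and 3.1.0, and the matrix header names 3.1.0. The study's own methods name a later version, run on mm10 joined to a YFP sequence. Cells with at least 200 genes were kept, doublets were removed by simulated neighbours at a rate of 4.04%, and outliers were removed beyond 3 median absolute deviations. Cells were clustered with Seurat 5.3.0 and sctransform 0.4.2 in R 4.3.3 (3000 variable genes without Hsd17b genes, 30 components, resolution 0.8). A cluster was named where its markers' mean log2 ratio was at least 1, at least 3 of them were in 25% of its cells, and its 10 leading genes held no more markers of another class than of its own; clusters of low depth with none of their markers among those 10 stayed unnamed. Counts were summed per class and given as CPM with exact Poisson intervals, and shares with exact binomial intervals. A feature was called at 2-fold with at least 10 UMIs. Named genes were the members, other Hsd17b genes, the partner lists and the 3 genes most like each member. One gene that this rule names is not reported here. The members and lists were chosen with earlier results of these data known. Gene models came from GENCODE M21. The counting steps were tested on simulated data.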

Additional observations from a re-analysis of the deposited data

Results flagged for a closer look

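Among the 372 barcodes with fewer than 200 genes, which entered no comparison, *Hsd17b10* had 6 UMIs (4.26 CPM of 1409901 UMIs), more than the 3 counts that a count of 0 allows. Hemoglobin genes took 46.8% of the UMIs of these barcodes. The other 6 members had 1 to 3 UMIs each there.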

How the results depend on the processing

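Members higher in Sertoli-like than Leydig-like cells by 2-fold or more numbered 2 under all 17 alternatives. The member lower by that rule was lost (0) with the mean of single-cell CPM and with cluster 6 as the Leydig-like class. Members highest in Sertoli-like cells fell to 1 with each cell classed by itself, where *Hsd17b1* was highest in rete testis-like cells. Members highest in Leydig-like cells were 2 with all named classes whatever their size and with cluster 6 alone. *Hsd17b11* was highest in rete testis-like cells under 5 alternatives, in immune-like cells under 1 and in Sertoli-like cells under 1. Members highest in germ-like cells were 2 by UMIs per cell and with cluster 6 alone, where *Hsd17b8* joined *Hsd17b4*. Without a minimum of UMIs, 2859 features were lower in Sertoli-like cells in place of 1783. The log2 ratios kept their direction under all 17 alternatives for 6 members and under 16 for *Hsd17b11*. Their ranges were 4.79 to 6.42 for *Hsd17b1*, 5.30 to 7.20 for *Hsd17b3*, -0.96 to -0.07 (cluster 6 alone) for *Hsd17b12* and -0.66 to 0.51 for *Hsd17b11*. With no doublets removed the first 2 fell to 4.80 and 5.30. The classes of all named cells and the separate Leydig-like clusters were chosen after seeing the data. No paired analysis was possible because there is 1 library. Classes of few cells hold few UMIs, so levels there have wide intervals.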

Other observations

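The 1228 barcodes removed as doublets or outliers held 16435759 UMIs, and all 7 members were read in them. *Hsd17b3* stood at 39.9 CPM, *Hsd17b1* at 21.5 CPM, *Hsd17b4* at 48.3 CPM and *Hsd17b10* at 138 CPM.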
